A study of Mus musculus with 9 samples.

Results

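The 41 genes described here are a list of interferon-stimulated genes, whose transcription is switched on by interferons. They were listed by name and not ranked by a measured value, but earlier results of these data were known when the list was made. They are 41 of the 53713 genes in the count matrix of mouse liver cells in which they were measured. That matrix holds cells of C57BL/6J mice labelled CluKO, 6-8 weeks old, that received recombinant human clusterin during injection of carbon tetrachloride (CCl4), a liver toxin, the labels not stating for how long. The study also deposited 3 matrices from wild-type C57BL/6J mice of the same age given CCl4 for 0, 2 or 4 weeks, but the files used here do not pair the rows of those matrices with gene names, so the members were not analysed there. The matrix labelled CluKO pools 6 samples, its 4694 barcodes are all distinct and carry no sample name, and the design text speaks of 3 such mice, so it was treated as 1 sample. No replicate error can therefore be given and no test was run. All intervals are 95% intervals for counting error only.

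Interferons are secreted proteins that alert cells to infection. Type I interferons signal through a receptor that activates STAT2, which acts with IRF9 in a complex that binds the interferon-stimulated response element (ISRE), while the response to interferon gamma uses the gamma-activated site (GAS). In the liver, Kupffer cells, the resident macrophages, meet microbial products arriving in portal blood, and interferon-stimulated genes include antiviral effectors, sensors of foreign nucleic acid, GTPases that attack intracellular pathogens, and the transcription factors that carry the response itself.

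The stretches upstream of 4 members that the results below describe, chosen from those that hold the letters of the ISRE, show what the element looks like. They are the 250 bases before the RefSeq start of each gene in GRCm38.p6, written 5′ to 3′ on the gene's own strand, with every match to the ISRE letters GAAANNGAAA, on either strand, in capitals. Ifit3 (chr19:34583279-34583528, plus strand) holds 2 matches, the first beginning at -156 from the start. Gbp7 (chr3:142530086-142530335, plus strand) and Rsad2 (chr12:26456453-26456702, minus strand) hold 1 each, at -53 and -120. Isg15 (chr4:156200819-156201068, minus strand) holds 3 that overlap in a single run of 22 bases, the first at -78.
Ifit3: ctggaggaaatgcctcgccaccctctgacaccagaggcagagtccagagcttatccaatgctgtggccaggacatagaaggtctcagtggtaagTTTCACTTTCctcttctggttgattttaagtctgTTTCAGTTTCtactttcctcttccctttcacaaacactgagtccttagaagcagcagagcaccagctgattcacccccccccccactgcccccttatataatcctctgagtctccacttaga
Gbp7: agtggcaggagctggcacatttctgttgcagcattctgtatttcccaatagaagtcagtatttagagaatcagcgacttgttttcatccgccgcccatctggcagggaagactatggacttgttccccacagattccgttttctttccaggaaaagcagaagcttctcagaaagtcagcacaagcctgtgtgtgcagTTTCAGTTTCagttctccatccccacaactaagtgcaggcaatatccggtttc
Isg15: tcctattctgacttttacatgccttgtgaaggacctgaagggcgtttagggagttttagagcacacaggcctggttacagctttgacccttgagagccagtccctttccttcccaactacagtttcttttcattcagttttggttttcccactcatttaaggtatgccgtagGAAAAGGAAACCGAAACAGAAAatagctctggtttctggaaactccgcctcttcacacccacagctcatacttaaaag
Rsad2: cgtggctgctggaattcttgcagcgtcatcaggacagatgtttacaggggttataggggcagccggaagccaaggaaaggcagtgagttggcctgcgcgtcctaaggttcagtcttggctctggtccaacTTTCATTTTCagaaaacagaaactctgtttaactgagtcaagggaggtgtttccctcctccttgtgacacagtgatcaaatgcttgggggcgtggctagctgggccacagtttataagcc

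RefSeq promoter windows of 300 bases, 250 before and 50 after the start, were matched to 31 of the 41 members. The ISRE letters were found in 19 of these 31 members (61.3%), against 3.99% of the 27025 genes with such a window. The GAS letters TTCNNNGAA, which read the same on both strands, were found in 9 of 31 (29.0%), against 9.55% of genes. Members without the ISRE letters in this window included Irf7, Ifit2, Isg20, Oasl1 and Oasl2. A match is a run of letters and not a measured binding site.

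Cells were barcoded in microwells (Singleron GEXSCOPE), and each transcript carries a unique molecular identifier (UMI) so that PCR copies are counted once. The matrix holds 28912707 UMIs with a median of 4803.5 per cell, and the wild-type matrices hold 7739 to 20215 cells. Of 4694 cells, 4616 passed a filter of at least 200 genes and at most 20% mitochondrial UMIs. Cells were then sorted into 14 classes by counting UMIs of marker genes, none of which is a member. In all, 4115 cells fell into 1 class, 210 (4.55%) met the gates of more than 1 class and were left out as mixed, and 291 met none. The 10 classes of at least 50 cells are called here by their markers: 1931 macrophage, 583 hepatocyte, 488 mesothelial, 244 monocyte, 194 progenitor (granulocyte and monocyte precursors), 188 neutrophil, 180 plasma, 119 erythroid, 56 basophil or mast, and 52 conventional dendritic cells. Mesothelial cells line the surface of the liver, and their 9 markers together reached 6756 counts per 1000000 UMIs (CPM) in the mesothelial-marker cells against 18.5 CPM in macrophages, where the 8 macrophage markers reached 16283 CPM against 163 CPM in mesothelial-marker cells. The matrix labelled CluKO held 13762 UMIs of Clu, and the sources used here do not say which part of the gene was deleted, so these counts do not check the genotype.

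All 41 members had UMIs, from 53 for Mx2 to 34129 for Ifitm3. Mx2, a dynamin-like GTPase, is annotated as a polymorphic pseudogene in the mouse reference. Of the 93261 UMIs of all members, 58.4% belonged to 3 genes, Ifitm3, Ifi27l2a and Bst2. Ifitm3 is a membrane protein that blocks viral fusion, and Bst2 (tetherin) holds budding virus at the cell surface. Sums over members are therefore given for the other 38.

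The members did not share 1 cell class of highest level. Among the 10 classes, 11 members were highest in mesothelial-marker cells, 10 in macrophages, 7 in monocytes, 6 in conventional dendritic cells, 3 in erythroid cells, 3 in neutrophils and 1 in hepatocytes. The interval of the highest class stood clear of that of the second class for 18 members in this count: 5 mesothelial, 6 macrophage, 2 monocyte, 1 conventional dendritic, 3 erythroid and 1 hepatocyte. Taken as a ratio of the highest to the second class, the interval lay above 1 for 23 members, among them Oas3 at 1.58 (1.09 to 2.24) and Ifi35 at 1.79 (1.08 to 2.87), and included 1 for 18. The classes were ordered by these same counts, so the intervals describe the order and do not test it. The class of highest level was not counted over all genes. Set against all other classed cells, as described below, 15.9% of the 13546 genes tested were at least 2-fold higher in mesothelial-marker cells. In macrophages the share was 8.36%.

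**Figure D1:**
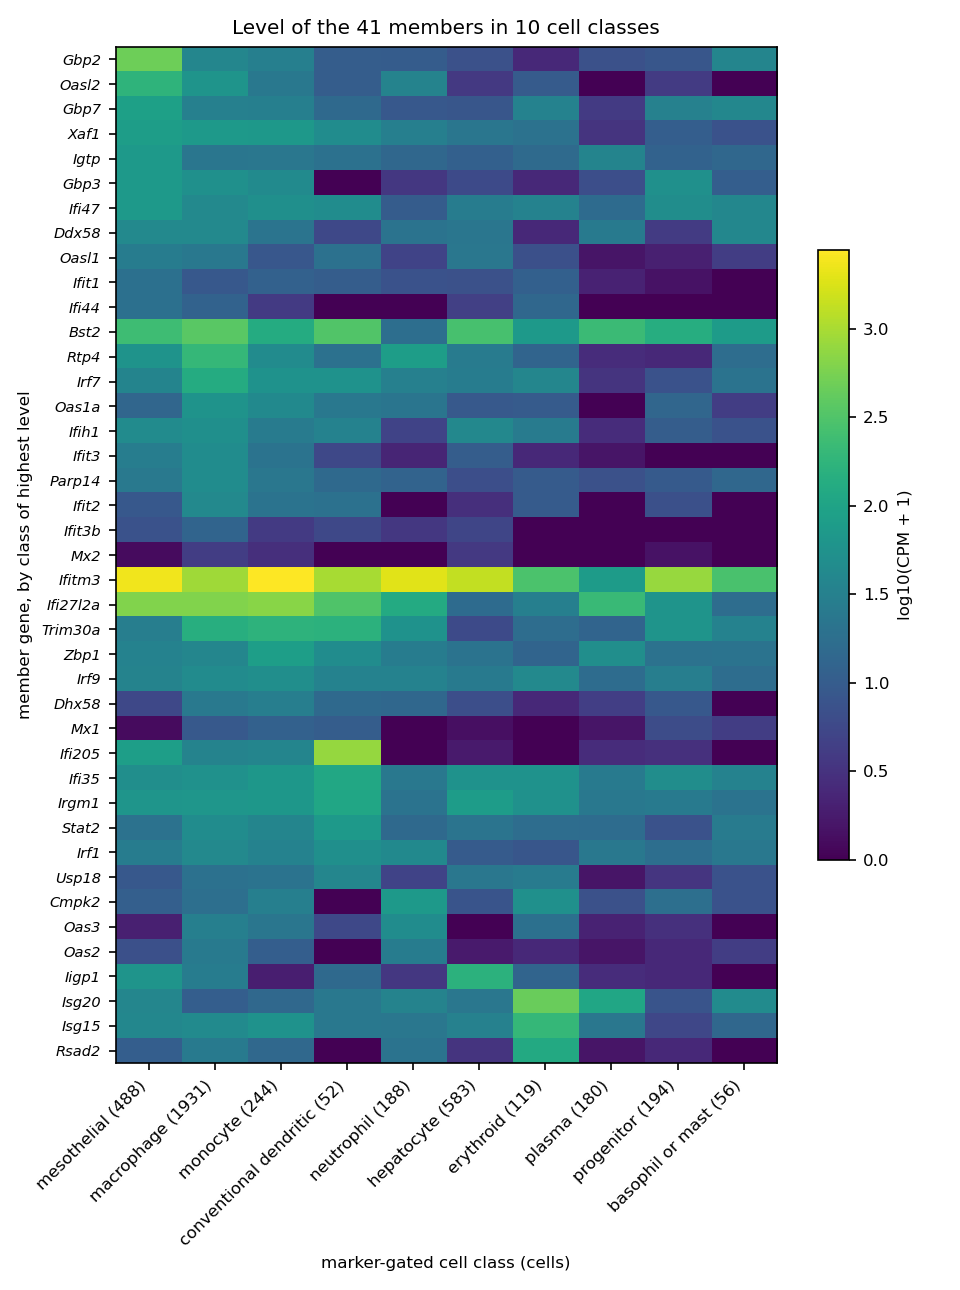
Level of each of the 41 members (rows, grouped by the class in which they were highest) in 10 marker-gated classes (columns, number of cells in parentheses); colour is log10(CPM + 1). Gbp2 and Oasl2 are brightest in mesothelial-marker cells, Ifi205 in conventional dendritic cells, Iigp1 in hepatocytes, and Isg20, Isg15 and Rsad2 in erythroid cells.

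The interferon-inducible GTPases, which coat and disrupt vacuoles that hold pathogens, divided between classes. Gbp2, a guanylate-binding protein, was at 488 CPM (467 to 510) in mesothelial-marker cells and at 37.4 CPM (34.0 to 41) in macrophages, the next class. It was detected in 402 of 488 mesothelial-marker cells (82.4%, median depth 7275 UMIs) and in 13.5% of macrophages (median 5177). With every cell thinned to 2000 UMIs the shares were 53.7% and 5.90%. Its neighbours on chromosome 3, Gbp3 and Gbp7, and the immunity-related GTPases Igtp and Ifi47 were also highest in mesothelial-marker cells, at 69.3, 88.9, 73.0 and 68.8 CPM. Iigp1, another immunity-related GTPase, was instead highest in hepatocytes, at 163 CPM (148 to 180), with UMIs in 227 of 583 cells. Its level in mesothelial-marker cells was 59.7 CPM (52.4 to 67.7). Irgm1 ranged from 19.4 CPM in neutrophils and in basophil or mast cells to 107 CPM in conventional dendritic cells.

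Among the effectors that act on viral RNA, Oasl2, of the oligoadenylate synthetase family, was at 172 CPM (160 to 185) in mesothelial-marker cells. In macrophages it was at 60.5 CPM (56.1 to 65.0). Oas1a, Oas2 and Oas3, synthetases whose product switches on an RNA-cutting enzyme, had another order. Oas1a was highest in macrophages at 58.4 CPM. Oas2 and Oas3 were highest in neutrophils at 27.2 and 46.6 CPM, against 24.8 and 29.4 CPM in macrophages, the second class. Oasl2 and Oas1a thus had their highest levels in different classes. The RNA-binding Ifit proteins were highest in macrophages for Ifit2 (40.9 CPM), Ifit3 (46.4 CPM) and Ifit3b (11.7 CPM). Ifit1 was highest in mesothelial-marker cells at 17.4 CPM against 10.6 CPM in monocytes, a ratio whose interval included 1 (0.862 to 3.43). Ifit3 and Ifit3b are near-identical neighbours on chromosome 19, and how the deposited counts divide reads between them is not known.

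Of the transcription factors that carry the response, Irf7, which drives interferon genes and is itself induced, was highest in macrophages at 131 CPM and reached 55.7 CPM in conventional dendritic cells. Irf9 and Stat2, partners in the ISRE-binding complex, and Irf1 had ratios of 1.10, 1.51 and 1.19 between their 2 highest classes, each with an interval that included 1. The DNA-binding Ifi205 was at 803 CPM (688 to 932) in conventional dendritic cells, with UMIs in 32 of 52 cells, and at 83.5 CPM (74.9 to 92.9) in mesothelial-marker cells, the next class. Hepatocytes held 2 UMIs of Ifi205 in 583 cells. Zbp1, a sensor of Z-form nucleic acid, was highest in monocytes at 85.2 CPM (68.3 to 105), and the RNA sensors Ifih1, Ddx58 and Dhx58 each had a ratio between their 2 highest classes whose interval included 1. In the 11 plasmacytoid dendritic cells, too few for the ranking, Bst2 was present in all 11 at 3611 CPM.

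Each class was also set against all other classed cells together, calling a gene when its CPM ratio, with 5 CPM added to each side, was at least 2-fold and its summed count at least 30. In macrophages 13 of 41 members were higher and 2 lower, against 8.36% and 16.5% of the 13546 genes tested, and the median log2 ratio was 0.57 over members and -0.20 over all genes. In hepatocytes 1 member, Iigp1, was higher and 19 were lower, against 12.3% and 24.9% of genes. In progenitors 0 were higher and 28 lower, against 8.33% and 16.6%. In plasma cells 1, Isg20, was higher and 30 were lower, against 2.36% and 39.4%.

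The other classes had between 0 and 6 members higher. In mesothelial-marker cells Oasl2, Gbp2, Gbp7, Igtp, Ifitm3 and Ifi205 were higher and 7 were lower, against 15.9% and 12.2% of genes. In conventional dendritic cells Ifi205, Stat2, Ifi35 and the Isg15 protease Usp18 were higher and 13 were lower, against 7.06% and 22.9%. In monocytes Zbp1 and Ifitm3 were higher and 6 were lower, against 4.5% and 15.3%. In neutrophils Oas3 and Cmpk2 were higher and 19 were lower, against 4.66% and 42.8%. In basophil or mast cells 0 were higher and 26 lower, against 7.46% and 23.1%.

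Among macrophages, Kupffer-marker cells had the highest level of most members. The 1931 macrophages were divided by markers into 620 Kupffer-marker cells (at least 3 of Clec4f, Vsig4, Timd4, Cd5l and Marco), 200 Cx3cr1-positive cells, 509 lipid-associated cells (at least 4 of Gpnmb, Spp1, Trem2, Cd9 and Fabp5, genes of macrophages that gather at scars), 201 Mmp12-high cells, 311 cycling cells and 90 others. Of the 41 members, 27 were highest in the Kupffer-marker cells, 11 in the other macrophages and 3 in the Cx3cr1 cells. The Mmp12-high cells were lowest for 27. The subset of highest or lowest level was not counted over all genes. The 38 members without the 3 most abundant summed to 3153 CPM in Kupffer-marker cells, 2172 in the other macrophages and 1810 in Cx3cr1 cells. They summed to 1202 CPM in cycling cells, 1127 in lipid-associated cells and 882 in Mmp12-high cells. In mesothelial-marker cells they summed to 1869 CPM, and in all macrophages together to 1673 CPM. Set against all other macrophages, the Kupffer-marker cells were at least 2-fold higher for 25 of 41 members and lower for 0, where 6.8% of 10659 genes were higher and 4.22% lower, and the median log2 ratio was 1.21 over members and 0.09 over all genes. Mmp12-high cells, set against all others likewise, were lower for 14 and higher for 0, against 5.45% and 0.985% of genes. The 90 other macrophages were higher for Ifit3, Ifi44, Usp18, Xaf1, Irgm1 and Ifitm3 and lower for 2, against 2.07% and 9.96%. Of the 68 UMIs of Ifit1, Ifit2, Ifit3 and Ifit3b in these 90 cells, 1 cell held 32 (47.1%). That cell had 22 UMIs of Ifit3 and 7 of Usp18, and the comparison was not repeated without it.

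Irf7 shows the order most plainly. It was at 343 CPM (321 to 365) in Kupffer-marker cells, 143 CPM (104 to 190) in the other macrophages, 110 CPM (89.7 to 133) in Cx3cr1 cells, 74.0 CPM (64.3 to 84.7) in cycling cells, 53.8 CPM (46.2 to 62.4) in lipid-associated cells and 34.5 CPM (26.3 to 44.4) in Mmp12-high cells. The interval of the Kupffer-marker cells lay above every other, whereas those of the other macrophages and the Cx3cr1 cells overlapped. It was detected in 416 of 620 Kupffer-marker cells (67.1%, and 46.8% thinned to 2000 UMIs) and in 121 of 509 lipid-associated cells (23.8%, and 9.63% thinned). Among the subsets gated on markers Ifit3 had a like order, with 124 CPM in Kupffer-marker, 43.9 in Cx3cr1, 19.1 in cycling, 17.5 in lipid-associated and 8.62 in Mmp12-high cells. The other macrophages, called higher for Ifit3 above, are not placed in that order.

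**Figure D2:**
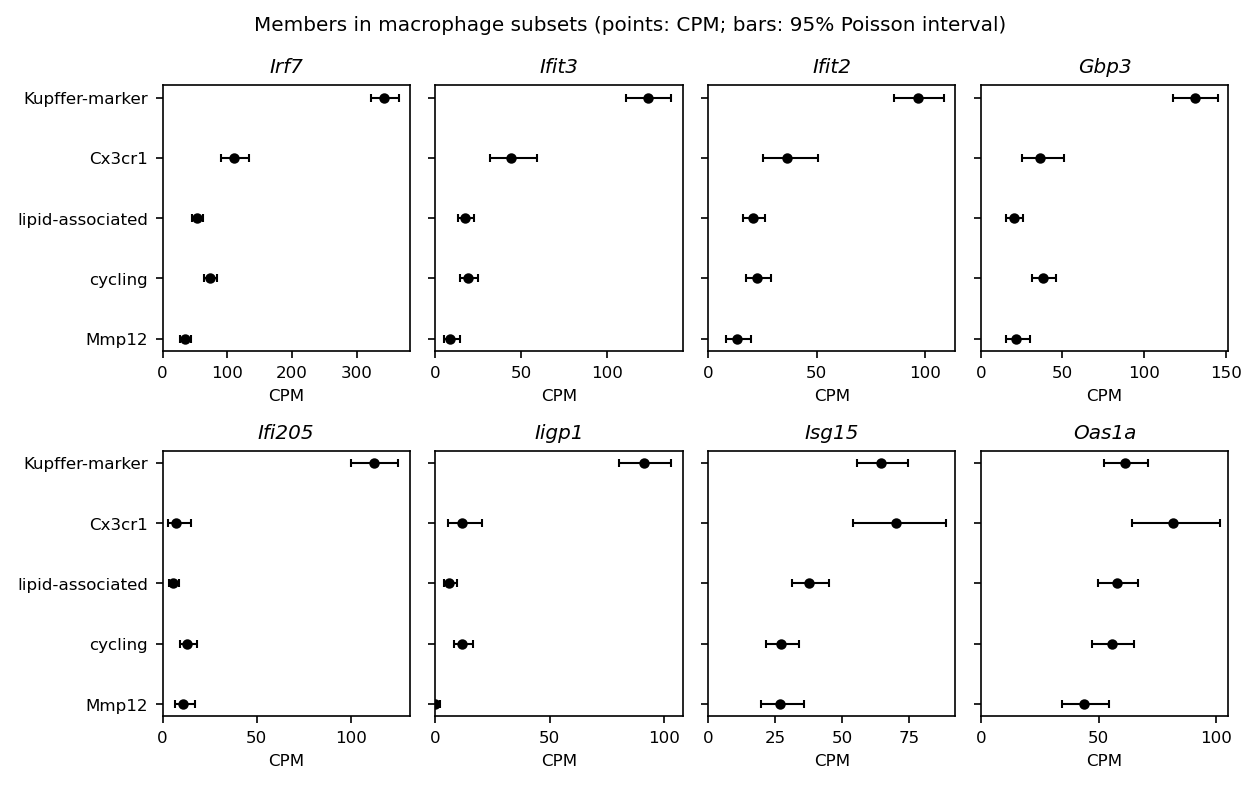
CPM of 8 members in 5 macrophage subsets; points are the level from summed counts and bars the 95% Poisson interval. Irf7, Ifit3, Ifit2, Gbp3, Ifi205 and Iigp1 have their highest point in Kupffer-marker cells, whereas Isg15 and Oas1a are, of these 5, highest in Cx3cr1 cells, at 70.0 and 81.5 CPM.

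In lipid-associated cells, 26 of the 40 members with enough counts were at least 2-fold lower than in Kupffer-marker cells and 0 were higher, against 9.41% and 2.99% of the 9311 genes tested. The median log2 ratio was -1.35 over members and -0.20 over all genes. Ifi205 was 20.2-fold lower (12.6 to 34.6), at 5.54 against 112 CPM, and Iigp1 14.8-fold lower (9.39 to 24.7), at 6.15 against 91.1 CPM. Ifit3b had 3 UMIs in lipid-associated cells, a ratio of 38.3 with an interval of 12.7 to 189. Irf7 was 6.36-fold lower (5.41 to 7.52) and Ifit3 7.05-fold lower (5.32 to 9.50). Oasl1, which restrains Irf7 translation, was 8.61-fold lower (5.50 to 14.1), and the synthetase Oas2 6.51-fold lower (4.39 to 9.94). Gbp3, Gbp7 and Ifit2 were 6.45-fold, 6.20-fold and 4.69-fold lower. The 16 other members called lower were Ifi44, Stat2, Parp14, Ifi27l2a, Ddx58, Irf1, Ifi47, Cmpk2, Gbp2, Dhx58, Trim30a, Mx1, Rsad2, Ifit1, Ifitm3 and Zbp1, with ratios of 2.19 to 7.18, and of these the call of Zbp1 was lost in 4 of 11 alternative settings. Some members were near parity. Oas1a stood at 57.9 against 61.1 CPM, Oasl2 at 58.2 against 73.5 CPM, Irf9 at 41.8 against 53.0 CPM, and Isg20 at 9.85 against 6.71 CPM.

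Cx3cr1 cells stood between these subsets for many members. Of 40 members, 13 were at least 2-fold lower than in Kupffer-marker cells and 1 was higher, against 9.59% and 2.54% of the 8470 genes tested, and the median log2 ratio was -0.61 over members and -0.19 over all genes. Ifi205 was 15.3-fold lower (7.34 to 38.4) at 7.31 CPM, Iigp1 7.93-fold lower (4.36 to 16.1) at 11.5 CPM, Gbp3 3.58-fold lower (2.53 to 5.22), Irf7 3.12-fold lower (2.55 to 3.86), Oasl1 3.10-fold lower (1.90 to 5.36) and Gbp7 2.95-fold lower (1.96 to 4.62). The Ifit genes were less far apart, with Ifit3 2.82-fold lower (2.04 to 3.98) and Ifit2 2.65-fold lower (1.86 to 3.88), but 3 of the 200 Cx3cr1 cells held 49.0% of that subset's UMIs of the 4 Ifit genes. Without cells that had at least 5 Ifit UMIs among 2000, Ifit3 was 4.52-fold and Ifit2 5.15-fold lower. Oas2, Ddx58, Ifi44, Rsad2 and Stat2 were 2.30-fold to 2.61-fold lower. The exonuclease Isg20 was the member higher, 2.80-fold, on 18 and 19 UMIs, a call lost in 4 of 11 alternative settings. Those of Rsad2, Ifi44, Oas2 and Stat2 were lost in 4, 3, 2 and 2. Both comparisons use the same Kupffer-marker cells, so they are not independent.

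**Figure D3:**
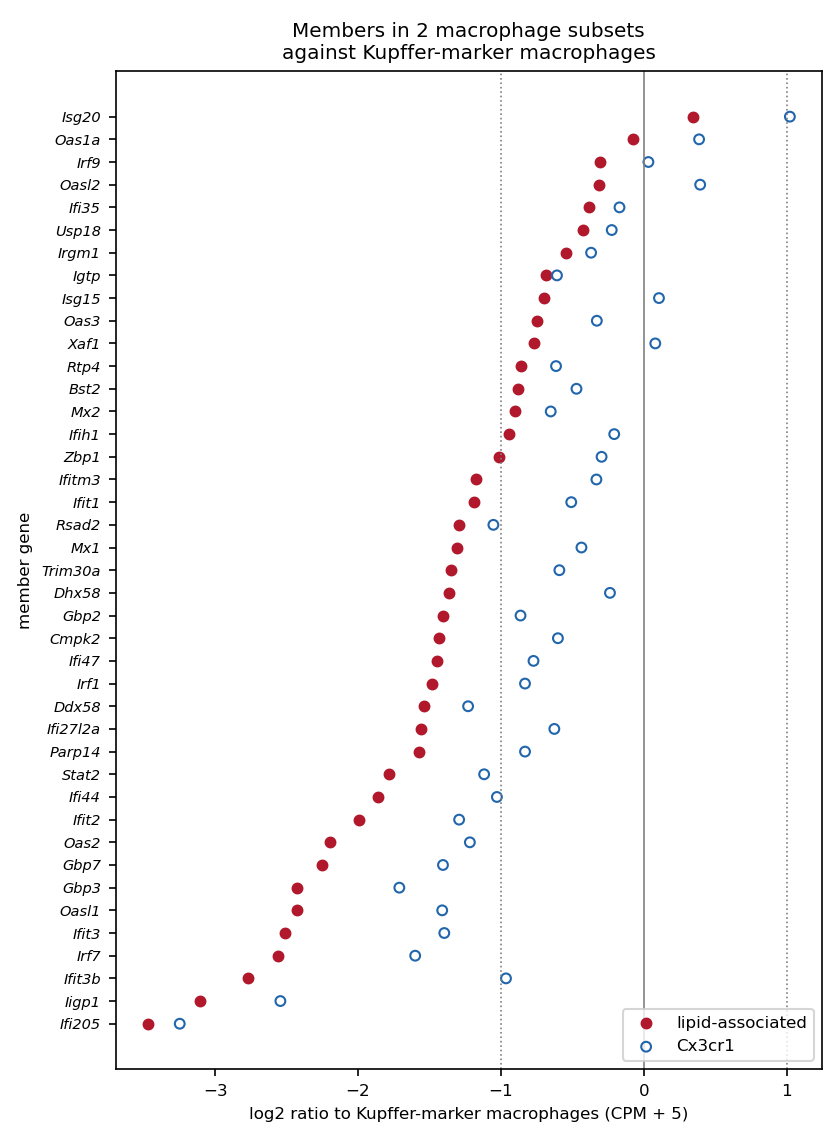
Log2 ratio of each member to Kupffer-marker macrophages, with 5 CPM added to each side, in lipid-associated cells (filled red) and Cx3cr1 cells (open blue); dotted lines mark 2-fold. Most red points lie left of the line at -1, with Ifi205 and Iigp1 farthest left in both subsets.

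Depth and other cells' RNA differed between these subsets. Median UMIs per cell were 4097.5 in Kupffer-marker, 4456.5 in Cx3cr1 and 5904 in lipid-associated cells. The 8 hepatocyte markers, all detected in hepatocytes at 45969 CPM in sum, reached 1445 CPM in Kupffer-marker, 1212 CPM in Cx3cr1 and 976 CPM in lipid-associated cells. Iigp1, the member highest in hepatocytes at 163 CPM, was at 91.1 CPM in Kupffer-marker cells, and Ifi205, at 0.771 CPM in hepatocytes, was at 112 CPM. The part of hepatocyte RNA in the Kupffer-marker levels was not tested further.

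Mesothelial-marker cells were compared with macrophages because the study's title names the mesothelium. Of 41 members, 8 were at least 2-fold higher and 11 lower, against 18.9% and 11.2% of the 12296 genes tested, and the median log2 ratio was -0.19 over members and 0.17 over all genes. The share higher was close to that of all genes. Gbp2 was 13-fold higher (11.8 to 14.5), Isg20 3.76-fold (2.93 to 4.83), Igtp 3.41-fold (2.88 to 4.05), Gbp7 2.87-fold (2.47 to 3.32) and Oasl2 2.85-fold (2.56 to 3.17). Ifitm3 was at 2326 against 912 CPM, 2.55-fold higher, and Ifi205 and Iigp1 were 2.46-fold and 2.20-fold higher. These last 2 calls were the least stable, that of Iigp1 being lost in 7 of 11 alternative settings and that of Ifi205 in 4. They also hold only against all macrophages together. At 83.5 CPM for Ifi205 and 59.7 CPM for Iigp1, mesothelial-marker cells stood below the Kupffer-marker subset, whose levels are given above.

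The members lower in mesothelial-marker cells included Oas1a, Oas2 and Oas3. Oas3 had 4 UMIs there, 0.983 against 29.4 CPM, and was 29.9-fold lower (11.6 to 111). Oas1a was 4.66-fold lower (3.51 to 6.33) at 12.5 against 58.4 CPM, and Oas2 4.21-fold lower (2.77 to 6.67). Trim30a, a regulator of Toll-like receptor signalling, was 5.00-fold lower (4.14 to 6.09) at 28.5 against 142.6 CPM. Ifit2 was 5.20-fold, the RNA sensor Dhx58 5.03-fold, Irf7 3.76-fold and the receptor chaperone Rtp4 3.33-fold lower. Rsad2 (viperin), which makes a chain-terminating nucleotide, and Stat2 were 2.60-fold and 2.44-fold lower. Without the cells that had at least 5 Ifit UMIs among 2000, Rsad2 was 5.70-fold lower, and its call was lost in 3 of 11 alternative settings. The GTPase Mx1 had 1 UMI in mesothelial-marker cells and 99 in macrophages, a ratio of 33.8 with an interval of 5.93 to 1350.

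Enpp2 encodes autotaxin, a secreted enzyme that makes lysophosphatidic acid, and it divided the 488 mesothelial-marker cells into 143 with at least 1 UMI of it and 345 without. The Enpp2-positive cells had higher levels of 8 of 35 members with enough counts and lower levels of 0 at the 2-fold bound, against 2.9% and 3.21% of the 9705 genes tested, and the median log2 ratio was 0.52 over members and 0.04 over all genes. Ifi205 was at 233 against 29.5 CPM, 7.91-fold higher (6.18 to 10.2), with UMIs after thinning in 28.7% against 4.06% of cells. Iigp1 was at 125 against 36.1 CPM, 3.45-fold higher (2.66 to 4.49), in 23.1% against 7.54% of thinned cells. Ifit3 was at 87.8 against 6.02 CPM, 14.6-fold higher (8.74 to 25.6), in 13.3% against 1.74% of thinned cells. Rsad2 was 8.29-fold higher (3.94 to 19.0) on 30 and 10 UMIs, Ifit1 3.56-fold (2.17 to 5.89), Oas1a 2.66-fold (1.47 to 4.78), Stat2 2.42-fold (1.51 to 3.89) and Trim30a 2.41-fold (1.64 to 3.52).

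A few cells held much of this signal. Of the 143 Enpp2-positive cells, 5 (3.50%, 1.14% to 7.97%) had at least 5 Ifit UMIs among 2000, and they held 90 of the subset's 171 Ifit UMIs (52.6%). None of the 345 other cells did, where 3 cells would make a share of 0.870% and the upper bound of the interval was 1.06%. Without the 5 cells, 4 members remained at least 2-fold higher in the 138 cells left: Ifi205 at 7.72-fold, Ifit3 at 6.11-fold, Iigp1 at 2.98-fold and Oas1a at 2.71-fold. The ratios of Ifit1, Rsad2, Trim30a and Stat2 were then 2.00, 1.97, 2.00 and 1.86, below the bound once 5 CPM is added to each side. The calls of Stat2, Oas1a and Trim30a were lost in 4, 3 and 3 of 12 alternative settings.

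Other members did not follow this order. Gbp2 was 1.69-fold lower (1.51 to 1.91) in the Enpp2-positive cells, at 324 against 548 CPM, short of the 2-fold bound. Oasl2 was at 147 against 181 CPM, Isg15 at 61.0 against 30.1 CPM and Ifitm3 at 2799 against 2154 CPM. Across cells with 0, 1, 2 to 9, and 10 or more Enpp2 UMIs (345, 30, 63 and 50 cells), Gbp2 was at 548, 473, 331 and 216 CPM. Over the same bins Ifit3 was at 6.02, 44.4, 69.2 and 135 CPM, and Ifi205 at 29.5, 51.8, 272 and 315 CPM. Iigp1 was at 36.1 CPM without Enpp2 and between 115 and 131 CPM in the 3 bins with it. Gbp2 was thus lowest in the cells with most Enpp2, where Ifi205 was high. The rise of Ifit3 across the bins with Enpp2 rested on few cells. Of its 55 UMIs in the 50 cells of the last bin, 36 lay in 2 Ifit-rich cells, and of its 12 in the 30 cells with 1 Enpp2 UMI, 10 lay in 2 such cells. Without the Ifit-rich cells Ifit3 was at 6.02, 7.65, 44.9 and 47.8 CPM over the 4 bins, Ifi205 at 29.5, 53.5, 269 and 299 CPM, and Gbp2 at 548, 478, 317 and 204 CPM.

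**Figure D4:**
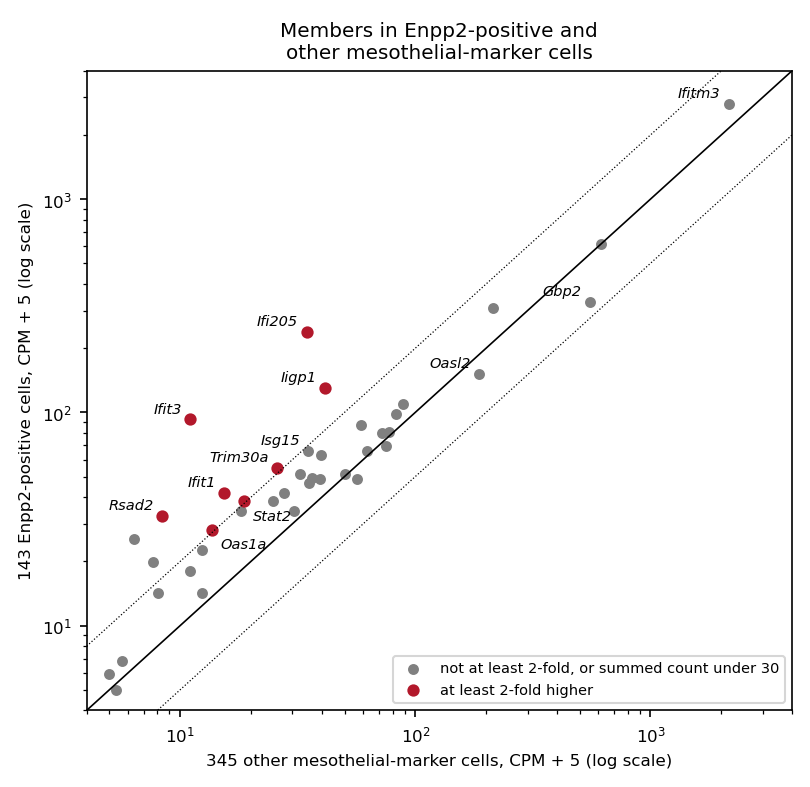
CPM + 5 of each member in 143 Enpp2-positive (vertical) and 345 other mesothelial-marker cells (horizontal), both on log scales; the solid line marks equality and dotted lines 2-fold. The 8 red points, led by Ifit3 and Ifi205, lie above the upper dotted line, and Gbp2 lies below the solid line.

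The Enpp2-positive cells were shallower, with a median of 6376 against 7827 UMIs, and had less of the mesothelial markers, 4691 against 7504 CPM in sum. Their macrophage markers summed to 185 against 156 CPM and their hepatocyte markers to 466 against 450 CPM. The 5 Kupffer markers summed to 60.1 against 64.3 CPM, and to 20399 CPM in Kupffer-marker cells, which held Ifit3 at 124 CPM and Ifi205 at 112 CPM. The 6 conventional dendritic markers summed to 12.0 CPM in both sets, with Xcr1, Clec9a, Cd209a and Itgae at 0 in the Enpp2-positive cells, and to 1592 CPM in conventional dendritic cells, which held Ifi205 at 803 CPM. Of 4 MHC class II genes with enough counts, which macrophages and dendritic cells carry, 1 was called higher in the Enpp2-positive cells and 0 lower. This was H2-Ab1, at 104 against 46.5 CPM, 2.23-fold (1.72 to 2.87). H2-Aa stood at 71.2 against 35.5 CPM, H2-Eb1 at 65.6 against 31.5 CPM and Cd74 at 725 against 609 CPM, and the median log2 ratio over the 4 was 0.93. The part of RNA from other cells in the Enpp2 comparison was not tested further.

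In erythroid-marker cells, red cell precursors, 3 members reached their highest level among the classes of at least 50 cells, while most members were low. Isg20 was at 456 CPM (406 to 509) in 93 of 119 cells, Isg15 at 198 CPM (166 to 234) in 37 cells and Rsad2 at 123 CPM (98.2 to 152) in 29 cells. The levels of Isg15 and Rsad2 depended on which cells were kept and how they were weighted: Rsad2 was at 43.8 CPM with a stricter cell filter, 53.8 CPM with 1 marker more and 231 CPM with cells thinned to 2000 UMIs, and Isg15 at 136, 152 and 328 CPM. Their levels over all other classed cells were 24.8, 37.3 and 15.7 CPM. At the 2-fold bound 4 members were higher, these 3 and the nucleotide kinase Cmpk2, and 23 were lower, against 8.11% and 24.7% of the 13546 genes tested. The ratios were 18.4 (16.0 to 21.1) for Isg20, 7.82 (6.10 to 9.92) for Rsad2, 5.30 (4.39 to 6.36) for Isg15 and 3.26 (2.25 to 4.59) for Cmpk2, on 36 UMIs.

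The levels of these 3 differed between erythroid cells with little and with much haemoglobin RNA. In the 84 cells with at least 300 haemoglobin UMIs per 10000 (median 3044 UMIs), Isg20 was at 766 CPM (670 to 873) in 73 cells, Isg15 at 443 CPM (370 to 526) in 33 and Rsad2 at 276 CPM (219 to 343) in 27. In the 35 cells below that bound (median 10633 UMIs) they were at 221 CPM (177 to 273), 12.9 CPM (5 UMIs) and 7.71 CPM (3 UMIs). Isg20 was thus above the other classed cells in both sets, and Isg15 and Rsad2 in the first set alone. Thinned to 2000 UMIs, Isg20 was found in 75% of the 84 and 31.4% of the 35 cells, and in 3.95% of other classed cells. In the 84 cells Ifit3 and Gbp2 had 0 UMIs, where 3 UMIs would make 10.2 CPM, Ifit1 had 7 and Oasl2 6. The haem enzyme Alas2, one of the gate's markers, was at 2187 CPM there, and the macrophage genes C1qa and C1qb, at 892 and 2297 CPM over other classed cells, were at 37.5 and 51.1 CPM.

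**Figure D5:**
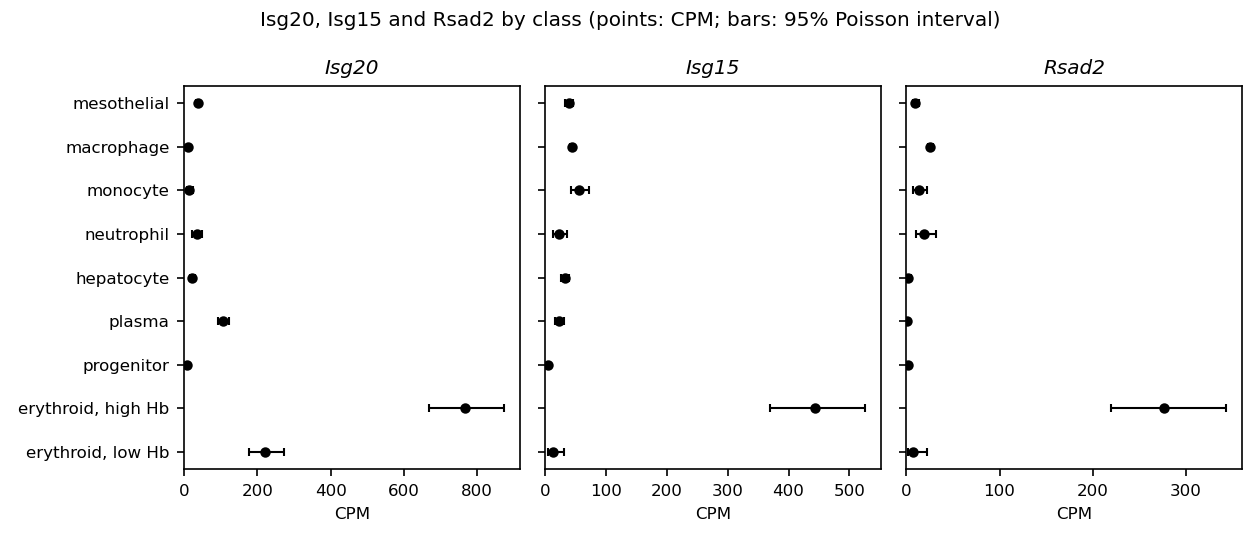
CPM of Isg20, Isg15 and Rsad2 in 7 classes and in erythroid-marker cells above (high Hb, 84 cells) and below (low Hb, 35 cells) 300 haemoglobin UMIs per 10000; bars are 95% Poisson intervals. The high-haemoglobin cells lie to the right of every other point in each panel, at 766, 443 and 276 CPM.

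Neutrophils gave little room for comparison. Of 188, 161 carried transcripts of secondary granules, made while the cells mature, and 27 had few of them, with 77054 UMIs in all. In those 27 cells 3 of 7 members with enough counts were at least 2-fold higher and 1 lower, against 12.9% and 21.1% of 2284 genes, and the median log2 ratio was 0.98 over members and -0.09 over all genes. Rtp4 was at 337 against 53.2 CPM, 6.34-fold higher (3.69 to 10.8), and Irf1 at 143 against 31.6 CPM, 4.51-fold higher (1.98 to 9.71). Oas3 was 2.18-fold higher on 7 and 29 UMIs, with an interval of 0.805 to 5.08 that includes parity, and its call was lost in 5 of 10 alternative settings. Cmpk2 had 2 UMIs, at 26.0 CPM, against 52 UMIs at 74.8 CPM in the immature cells.

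Cell by cell, a small number of cells of many classes carried many members together. With every cell thinned to 2000 UMIs, 26 of the 4616 cells (0.563%) had at least 5 UMIs of Ifit1, Ifit2, Ifit3 and Ifit3b, and they held 407 of the 1891 Ifit UMIs of all cells (21.5%). A median of 20.5 members was detected in them and of 6 in all other cells. That count includes the Ifit genes by which the cells were chosen and was made without thinning. The other cells are of every class, and no matched comparison was made. The 26 cells comprised 12 macrophages, of which 4 were Kupffer-marker cells, 5 mesothelial-marker cells, 2 hepatocytes, 2 monocytes, 2 T cells, 1 erythroid cell and 2 cells of no class. An Enpp2-positive cell with 5651 UMIs held 17 of Ifit3, 9 of Ifit1, 6 of Isg15, 5 of Irf7 and 15 of Enpp2, with 27 members detected. One hepatocyte with 3989 UMIs held 18 of Ifit3, 10 of Ifit3b, 9 of Ifit1, 9 of Iigp1 and 8 of Cmpk2. One T cell held 22 UMIs of Isg15, 15 of Ifit1 and 11 of Iigp1, with 33 members detected among 10133 UMIs.

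These cells weighed unequally in the class levels. They held 76.8% of the Ifit UMIs of hepatocytes, 63.0% of those of monocytes and 97.3% of those of T cells, so the Ifit levels of those classes rest on 2 cells each. In Kupffer-marker cells the 4 such cells held 4.27%, and 334 of the 620 cells had at least 1 Ifit UMI. At 2000 UMIs per cell, Ifit UMIs were 0 in 63.2% of Kupffer-marker cells, 93.5% of lipid-associated cells, 79.7% of Enpp2-positive and 93.0% of other mesothelial-marker cells. For the 38 members together, without thinning, the 10% of cells with most held 27.1% of the UMIs in mesothelial-marker cells and 28.5% in macrophages. At 2000 UMIs per cell these shares were 29.2% and 31.3%. A median Kupffer-marker cell held 6 UMIs of the 38 members among 2000, and a median lipid-associated cell 2.

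Interferons themselves were almost absent from the counts. Of 10 interferon genes looked for, Ifng alone had UMIs in classed cells, 3 in 1 T cell and 1 in a progenitor, and the depth limits what such low transcripts can show. Among 6 receptor genes, 5 had enough counts and 0 were 2-fold apart in the Enpp2 comparison or in either comparison with Kupffer-marker cells. Ifnar1, a type I receptor chain, was at 45.9 CPM in Kupffer-marker, 67.9 CPM in Cx3cr1 and 47.1 CPM in lipid-associated cells. Socs3, a feedback inhibitor of cytokine signalling, was higher in Cx3cr1 and lipid-associated cells, at 26.1 and 23.7 CPM, than in Kupffer-marker cells, at 7.42 CPM.

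A further list of 45 interferon-stimulated genes outside the members gave these counts. In lipid-associated against Kupffer-marker cells, 21 of 40 with enough counts were at least 2-fold lower and 1 higher, against 9.41% and 2.99% of all genes, and in Cx3cr1 cells 8 of 40 were lower and 2 higher, against 9.59% and 2.54%. Ly6a was at 14.8 and 64.8 against 146 CPM, and Mndal, of the same DNA-binding family as Ifi205, at 109 and 209 against 395 CPM. Ifitm1, the gene higher in both, stood at 61.5 and 81.5 against 20.1 CPM. In Enpp2-positive mesothelial-marker cells 6 of 34 were higher and 0 lower, against 2.9% and 3.21% of all genes: Ly6a at 198 against 8.03 CPM, 24.6-fold (16.1 to 39.3), Ifi203 at 88.7 against 27.1 CPM, Ifi204 at 259 against 96.7 CPM, Ifitm1 at 119 against 47.2 CPM, Mndal at 99.8 against 43.8 CPM, and Dtx3l. Ly6a also marks progenitor and stromal cells. Of 5 MHC class II genes, which present antigen, 4 were higher in Cx3cr1 than in Kupffer-marker cells, with Cd74 at 7108 against 2243 CPM, and 0 were lower, against 2.54% and 9.59% of all genes, whereas all 5 were lower in mesothelial-marker cells than in macrophages. Of 12 nucleic acid sensors and adaptors, 7 were lower in mesothelial-marker cells than in macrophages and 0 were higher, against 11.2% and 18.9% of all genes.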

How the data were processed

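UMI counts per gene and cell were measured in liver cells by single-cell RNA sequencing. The values used are raw counts, deposited by the authors as sparse matrices, and held whole numbers alone when checked. Per the submitters' processing notes they rest on GRCm38. The aligner, counting tool and cell-calling rule were not given in the sources used here.

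Cells with at least 200 genes and at most 20% mitochondrial UMIs were kept, which left cells of at least 2371 UMIs. Each class needed a set number of its marker genes: 4 of 9 mesothelial, 5 of 8 macrophage, 7 of 8 hepatocyte (with at least 100 marker UMIs per 10000), 2 of 4 erythroid and 2 to 5 for the other classes. Among related blood lineages a fixed precedence applied, for example macrophage before monocyte. Macrophages were divided in the order cycling, Kupffer, Mmp12, Cx3cr1, lipid-associated. Doublets were treated by leaving out the 210 cells that met the gates of more than 1 class, and no doublet caller was run. The members, marker lists and pathway lists were chosen with earlier results of these data known, and the gates were revised once after the data, member levels included, had been seen. Some genes of the marker and pathway lists are not reported here.

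For each class the counts of its cells were added and scaled to 1000000 UMIs (CPM). The 95% intervals are exact Poisson for CPM, conditional binomial for ratios and Clopper-Pearson for shares, and say nothing of the spread between mice. A count of 0 is given with the level that 3 counts would make. A gene was called when the ratio of CPM, with 5 CPM added to each side, was at least 2-fold and its summed count at least 30. The members named in a comparison are those called, the 10 largest in each direction with their ratios, and pathway genes come from fixed lists, not from how they moved. The others, Gbp2, Oasl2, Isg15 and Ifitm3 in the Enpp2 split, the members near parity, and the single cells described were chosen after their values were seen. Scripts ran in Python 3.11.15 with numpy 2.4.6, scipy 1.17.1, pandas 2.3.3 and matplotlib 3.10.9, and the calling step was tested on simulated data. Promoter windows are from RefSeq and gene positions from GENCODE, both on GRCm38.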

Additional observations from a re-analysis of the deposited data

Results flagged for a closer look

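The cells that the filter left out were not part of any comparison, yet 3 of the 41 members stood above their level in the kept cells there. These are 78 cells, of which 77 had fewer than 200 genes and 2 exceeded the mitochondrial bound, with 210360 UMIs in all. Isg20 was at 580 CPM (482 to 692), on 122 UMIs in 58 cells, against 38.7 CPM in the kept cells. Isg15 was at 128 CPM (84.6 to 187), on 27 UMIs in 18 cells, against 41.8 CPM. Rsad2 was at 114 CPM (73.1 to 170), on 24 UMIs in 19 cells, against 18 CPM. They are the same 3 members that were highest in erythroid-marker cells. Haemoglobin transcripts made up 87.6% of the UMIs of these cells and 1.79% of those of the kept cells. Genes outside the members were not checked in this way, so no share over all genes stands beside the 3 of 41. The part of haemoglobin-rich cells in these levels was not tested, and with 1 pooled matrix no spread between mice can be given.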

How the results depend on the processing

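The 5 comparisons between pairs of classes or subsets were recomputed with 1 marker more per gate, mixed cells assigned to the class with most marker UMIs, a stricter cell filter (500 genes, 10% mitochondrial), every cell thinned to 2000 UMIs, offsets of 1 and 20 CPM, a minimum of 10 counts or no minimum, scaling to the median gene, and the mean of cell shares in place of summed counts. Leaving out the cells with at least 5 Ifit UMIs (not in neutrophils, where there were 0) and, for the Enpp2 split, a gate of 2 UMIs were added after the data were seen. The class of highest level, the CPM values in single classes and the shares in the 10% of cells with most were recomputed with 1 marker more, the stricter filter and thinning, and of these values the erythroid levels alone also without the Ifit-rich cell. Each class set against all other classed cells, and each macrophage subset against all others, were not recomputed. No called direction was reversed in these 5 comparisons. For the counts of members and the shares of cells, 101 recomputed values stayed within their bounds and 21 moved, all of them given here.

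In the Enpp2 split the 8 members higher became 4 with an offset of 20 CPM, against 1.44% of all genes. There were also 4 without the Ifit-rich cells, against 2.87%. Thinning gave 1 lower in place of 0, against 6.00%. Ifit3, Ifi205 and Iigp1 stayed at least 2-fold higher in all 12 settings. In Cx3cr1 against Kupffer-marker cells, the 1 member higher became 0 with 1 marker more, mixed cells assigned, thinning, an offset of 20 CPM, and the mean of cell shares, and the 13 lower became 8 with an offset of 20 CPM. There 7 of 14 named ratios stayed 2-fold in all 11 settings, and 18 of 26 did so in lipid-associated cells. In mesothelial-marker cells against macrophages an offset of 20 CPM left 5 higher and 6 lower in place of 8 and 11, and 10 of 19 named ratios held throughout. The neutrophil counts were the least stable. In place of 3 higher they gave 5 with 1 marker more, 12 with mixed cells assigned, 1 with thinning, 9 with a minimum of 10 counts and 14 with no minimum. In place of 1 lower they gave 0 with thinning, 3 with a minimum of 10 counts and 5 with no minimum. The number of members tested depends on the minimum count, so these counts do not share a denominator. Shares of all genes under the alternatives are given here for the Enpp2 split alone. The share of member UMIs in the 10% of cells with most was 29.2% after thinning in place of 27.1% in mesothelial-marker cells and 31.3% in place of 28.5% in macrophages.

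In erythroid-marker cells the stricter filter left 88 cells with Isg20, Isg15 and Rsad2 at 386, 136 and 43.8 CPM, and 1 marker more left 72 cells at 460, 152 and 53.8 CPM. Thinning, which weights shallow cells more, gave 639, 328 and 231 CPM. Without the 1 Ifit-rich cell they were at 447, 172 and 107 CPM. The class of highest level was the same for 32 to 40 of the 41 members under the alternatives tried for it.

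With a single pooled matrix, differences between mice, between wild-type and CluKO livers and between times of CCl4 could not be examined. Levels near 3 UMIs, such as those of Mx1, Mx2 and Oas3 in mesothelial-marker cells, are limited by depth. No paired analysis was possible because the barcodes of the pooled matrix carry no sample or replicate number and no result comes from a test.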
